A study of Mus musculus with 10 samples.

Results

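Expression of 10 genes of Toll-like receptor and NF-kappaB signaling was examined in 10 neural retinas of BALB/c mice, an albino strain that is sensitive to light. The genes were taken by name from the 54532 genes of the deposited table: the receptors *Tlr2* and *Tlr4*, the adaptor *Myd88*, the Rel family genes *Rela*, *Nfkb1*, *Rel*, *Nfkb2* and *Relb*, and the inhibitors *Nfkbia* and *Tnfaip3*. All 10 were among the 24508 genes with at least 0.1 FPKM (a read count divided by gene length and library size) in at least 5 retinas. The mice were 2 months old and had been kept in darkness for 12 hr before a light exposure of 1 day, to 200 lux in the normal light group (NL, n = 5 retinas) or to 15000 lux in the light damage group (LD, n = 5). The study exposed the mice to strong light to search for factors that the retina induces under light stress.

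The reads behind each value were recovered from the FPKM and came to 18965090 to 26832535 per retina. Defining photoreceptor genes were abundant, with a summed level of 4558 to 5271 FPKM over 6 markers in the NL retinas and 750.3 to 1522 FPKM in the LD retinas. Among the 20 pairs of retinas within a group, 3 were closer to each other than the rest (NL-5 with NL-7, LD-1 with LD-7 and LD-4 with LD-6, chi-square per gene of 2.65 to 3.65 against at least 12.2 for the others). All 10 retinas were kept as separate samples, and results that change when these pairs are averaged are given below with that value. With the pairs averaged, none of the differences between genes within retinas could pass, since the smallest exact permutation p is then 0.0571. Because whole retinas were sequenced, a lower level can come from fewer cells of a type or from less RNA per cell, which cannot be told apart here.

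Toll-like receptors recognize microbial molecules and molecules released by damaged cells. Through MYD88 and a chain of kinases they release the Rel family transcription factors from their IkappaB inhibitors. In the canonical branch, p50 (from *Nfkb1*) pairs with RELA or c-REL, whereas in the non-canonical branch p52 (from *Nfkb2*) pairs with RELB. The IkappaB alpha gene *Nfkbia* and the A20 gene *Tnfaip3* are well-known targets of NF-kappaB that shut the pathway down again. In the retina this pathway is best known from microglia, and Muller glia and neurons also use it.

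Several of these genes are known to be controlled by NF-kappaB itself, so their upstream sequences were searched for the 10-base NF-kappaB (kappaB) consensus motif on both strands. RefSeq promoter windows (GRCm38.p6) were found for 7 of the 10 members, and the 250 bases before a start site held a match in at least 1 window of 5 of them, *Tlr2*, *Nfkb2*, *Rel*, *Nfkbia* and *Tnfaip3*. A match was present in 7.25% of all 32851 promoter windows, and at least 2 separate matches in 0.393%. These shares count windows, whereas the members are counted as genes, some of which have more than 1 window. The stretches below set members with a match beside *Rela*, which has none. *Myd88*, which rose, also had none in its window and is not printed, and *Tlr4*, *Nfkb1* and *Relb* had no window. Each stretch runs 5′ to 3′ toward the start site, without annotated exons. Capitals mark the matched bases, overlapping matches being joined.
*Tlr2* (chr3:83841768-83841858, minus strand): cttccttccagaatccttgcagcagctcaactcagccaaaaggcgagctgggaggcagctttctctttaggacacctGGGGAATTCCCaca
*Nfkbia* (chr12:55492648-55492897, minus strand): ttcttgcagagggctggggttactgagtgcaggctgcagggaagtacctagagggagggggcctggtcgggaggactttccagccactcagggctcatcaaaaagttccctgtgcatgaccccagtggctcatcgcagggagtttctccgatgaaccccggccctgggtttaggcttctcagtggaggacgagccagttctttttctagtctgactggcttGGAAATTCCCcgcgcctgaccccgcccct
*Tnfaip3* (chr10:19015411-19015547, minus strand): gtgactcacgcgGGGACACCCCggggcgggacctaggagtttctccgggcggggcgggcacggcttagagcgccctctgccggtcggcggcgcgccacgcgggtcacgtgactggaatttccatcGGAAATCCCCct
*Rel* (chr11:23770971-23771219, minus strand): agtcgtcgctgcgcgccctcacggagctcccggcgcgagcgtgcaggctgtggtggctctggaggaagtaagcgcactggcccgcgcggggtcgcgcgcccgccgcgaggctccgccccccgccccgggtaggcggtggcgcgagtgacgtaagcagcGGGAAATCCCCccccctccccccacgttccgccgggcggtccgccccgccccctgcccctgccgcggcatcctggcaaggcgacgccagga
*Rela* (chr19:5637291-5637482, plus strand): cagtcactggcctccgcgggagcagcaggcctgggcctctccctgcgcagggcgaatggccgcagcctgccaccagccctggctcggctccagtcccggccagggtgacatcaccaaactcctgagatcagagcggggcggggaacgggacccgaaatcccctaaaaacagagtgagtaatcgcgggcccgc
The match lay 19 bases before the *Nfkbia* start site, 81 bases before that of *Rel* and 162 bases before that of *Tlr2*. For *Tlr2*, 159 of the 250 bases before this start site are in an annotated *Tlr2* exon. *Tnfaip3* held 2 matches in this stretch, the nearer one 2 bases before the start site of that window, and its other window held none. The printed stretch lies within the deposited positions of the gene. The matches of *Nfkb2* lay within annotated exons and are not printed. A match is a description of these letters only, since no binding was measured.

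Light damage separated the members into 3 sets. *Tlr2*, *Tlr4*, *Myd88*, *Nfkb2* and *Relb* rose by more than 2-fold, *Tnfaip3* fell by nearly 5-fold, and *Rela*, *Nfkb1*, *Nfkbia* and *Rel* were higher by less than 2-fold. In limma with Benjamini-Hochberg adjustment over all 24508 genes, 6 of the 10 members passed an adjusted p under 0.01 with a fold change above 2, against 6.51% of all genes tested (4.13% higher and 2.37% lower). The LD values lay above all NL values for 9 members and below them for *Tnfaip3*. Groups did not overlap in 22.4% of all genes tested (11.8% with LD above NL, 10.6% with LD below NL). With 5 retinas against 5, the two-sided exact permutation p of each member was 0.00794, the smallest this design allows. By adjusted p alone, with no minimum fold change, 9 of the 10 passed at 0.01 (17.0% of all genes) and 9 at 0.05 (27.8% of all genes). The median log2 fold change was 1.05 for the 10 members and -0.01 for all genes tested.

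**Figure D1:**
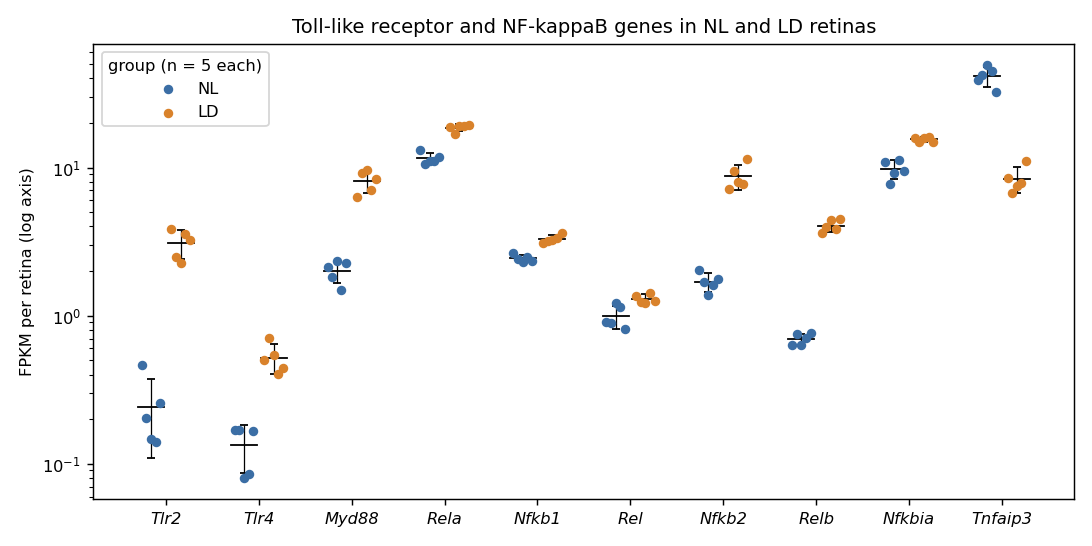
FPKM of each member (log axis) in the 5 NL and 5 LD retinas, with points for retinas, bars for the mean and whiskers for the SD. All members but *Tnfaip3* are higher in every LD retina than in every NL retina; *Tnfaip3* goes from the highest level of the 10 under NL (41.5 FPKM) to 8.35 FPKM after LD.

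The receptors were the least abundant members under normal light. *Tlr2*, which recognizes bacterial lipoproteins together with TLR1 or TLR6, was at 0.465, 0.203, 0.147, 0.141 and 0.257 FPKM in NL-1, NL-4, NL-5, NL-7 and NL-8, from 9 to 30 reads per retina. After light damage it was at 3.86, 2.49, 2.27, 3.54 and 3.23 FPKM in LD-1, LD-4, LD-6, LD-7 and LD-8, from 152 to 284 reads. The lowest LD retina was thus well above NL-1, the highest of the NL retinas. The mean went from 0.243 ± 0.133 to 3.08 ± 0.682 FPKM (SD, n = 5 each), a ratio of 12.7, and limma on log2(FPKM + 0.1) gave a log2 fold change of 3.26 ± 0.25 (SE, adjusted p = 7.68e-06). The added 0.1 FPKM understates the change of low genes, and adding 1 FPKM instead gave 1.70 for *Tlr2*. *Tlr2* lies on chromosome 3 from 83836272 to 83841767 (GRCm38), on the minus strand.

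*Tlr4*, the receptor for bacterial lipopolysaccharide (chromosome 4 from 66827584 to 66930284), was the member with the lowest level in either group. Its NL values were 0.168, 0.169, 0.0798, 0.0848 and 0.167 FPKM, in the same order of retinas, and its LD values 0.502, 0.71, 0.539, 0.403 and 0.445 FPKM. The groups did not overlap, although the values rest on few reads (9 to 24 in an NL retina, 51 to 80 in an LD retina). The log2 fold change was 1.41 ± 0.21 (SE, limma-adjusted p = 5.79e-04). It was under 2-fold when 1 FPKM was added in place of 0.1 (0.42), and averaging the closest pairs gave a limma-adjusted p of 0.0122 (range over all alternatives 1.50e-04 to 0.0212).

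Within a retina, the difference between *Tlr2* and *Tlr4* in log2(FPKM + 0.1) grew from 0.50 ± 0.34 under NL to 2.35 ± 0.53 after LD (SD, n = 5 each). This change of 1.85 was 1 of 9 such differences compared (two-sided exact permutation test, p = 0.00794, 0.0143 after Benjamini-Hochberg adjustment over the 9). *Tlr2* therefore rose more than *Tlr4*. Within the LD group the receptors also ranked the retinas differently, since *Tlr2* was highest in LD-1 and LD-7 and *Tlr4* in LD-4 and LD-6, which are the closest pairs of retinas.

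*Myd88*, whose product links most Toll-like receptors to their kinases, lies on chromosome 9 from 119335934 to 119341411. It was at 2.12, 1.81, 2.33, 1.5 and 2.26 FPKM in NL-1, NL-4, NL-5, NL-7 and NL-8, and at 6.32, 9.15, 9.65, 7.01 and 8.42 FPKM in LD-1, LD-4, LD-6, LD-7 and LD-8. The lowest LD value was more than 2-fold above the highest NL value. The log2 fold change was 1.96 ± 0.15 (SE, limma-adjusted p = 6.04e-06), with LD-4 and LD-6 above LD-1 and LD-7 as for *Tlr4*. *Myd88* overlaps *Acaa1a* on the opposite strand, and no source used here says whether strand was used in counting, so reads of *Acaa1a* (mean level 14.3 FPKM in NL, 13.1 FPKM in LD) could have been counted for either gene.

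The strongest increases among the Rel family genes were those of the non-canonical branch. *Relb* (chromosome 7 from 19606217 to 19629438) was at 0.638, 0.751, 0.634, 0.703 and 0.758 FPKM in the NL retinas and at 3.59, 3.94, 4.41, 3.83 and 4.5 FPKM in the LD retinas. Both groups were tight, and the log2 fold change was 2.38 ± 0.10 (SE, limma-adjusted p = 1.04e-07), the smallest adjusted p among the members. With 1 FPKM added in place of 0.1, the value was 1.57. *Nfkb2* (chromosome 19 from 46304737 to 46312090) was at 2.03, 1.67, 1.38, 1.6 and 1.76 FPKM under NL and at 7.12, 9.42, 7.98, 7.8 and 11.4 FPKM after LD. LD-8 was the highest retina for *Nfkb2* and also for *Relb*. The log2 fold change of *Nfkb2* was 2.30 ± 0.14 (SE, limma-adjusted p = 1.25e-06). Its end overlaps *Psd* on the opposite strand only from 46312087 to 46312090. The mean level of *Psd* was 54.9 FPKM in NL and 33.0 FPKM in LD retinas.

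The canonical genes moved less. *Rela* (chromosome 19 from 5637483 to 5648130) was at 13.1, 10.6, 11.1, 11.1 and 11.8 FPKM in the NL retinas and at 18.7, 16.9, 18.9, 19.0 and 19.5 FPKM in the LD retinas. Its log2 fold change of 0.69 ± 0.06 (SE, limma-adjusted p = 2.04e-05, 95% interval 0.55 to 0.82) was under 2-fold. *Nfkb1* (chromosome 3 from 135584655 to 135691547) was at 2.32 to 2.65 FPKM under NL, with a median of 2.41, and at 3.08 to 3.61 FPKM after LD, with a median of 3.22, a log2 fold change of 0.42 ± 0.07 (SE, limma-adjusted p = 0.00140). *Rel* (chromosome 11 from 23736847 to 23770970), which is best known from lymphocytes and myeloid cells, was at 0.902, 0.889, 1.21, 1.14 and 0.81 FPKM under NL and at 1.36, 1.24, 1.22, 1.43 and 1.26 FPKM after LD. The highest NL value, 1.207 FPKM in NL-5, almost touched the lowest LD value, 1.221 FPKM in LD-6. In limma the log2 fold change of *Rel* was 0.37 ± 0.13 (SE, 95% interval 0.08 to 0.67) with an adjusted p of 0.0606, which did not pass the threshold.

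**Figure D2:**
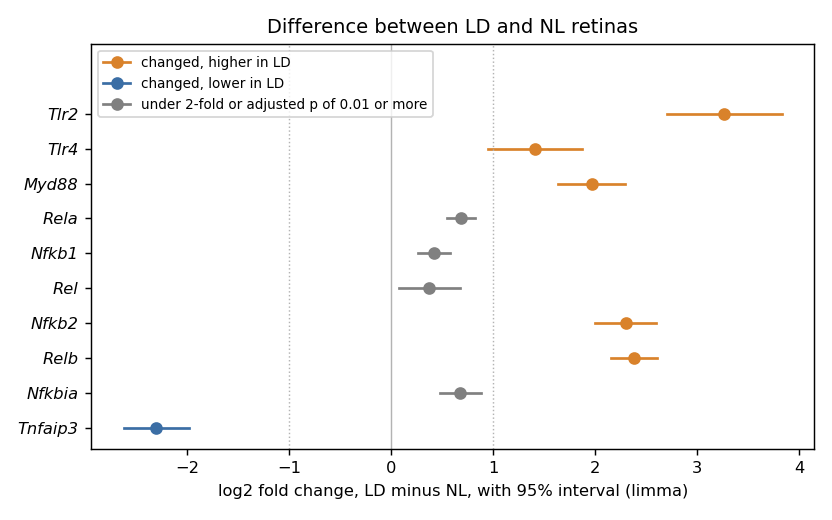
Log2 fold change of each member, LD minus NL, from limma, with its 95% interval before adjustment; dotted lines mark 2-fold. *Nfkb2* (2.30) and *Relb* (2.38) stand apart from *Rela* (0.69), *Nfkb1* (0.42) and *Rel* (0.37), and *Tnfaip3* (-2.30) is the only member below 0.

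The difference between genes of the non-canonical and canonical branches was tested within retinas. It concerns their RNA and does not measure the activity of either branch. *Nfkb2* relative to *Nfkb1*, its paralog, changed by 1.88 in log2(FPKM + 0.1), from -0.51 ± 0.14 under NL to 1.36 ± 0.21 after LD (SD, n = 5 each), and *Relb* relative to *Rela* by 1.69, from -3.87 ± 0.19 to -2.17 ± 0.13. In both, the groups were fully separated (two-sided exact permutation test, p = 0.00794, adjusted p = 0.0143 each). *Nfkb2* was thus below *Nfkb1* in every NL retina and above it in every LD retina. *Rel* relative to *Rela* differed by -0.31 (exact permutation p = 0.0794, adjusted 0.102, 95% interval -0.63 to 0.03), which was not distinguished from the spread between retinas. It did pass when 1 FPKM was added (-0.43, adjusted p = 0.0102) or after quantile normalization (-0.35, adjusted p = 0.0306, exact permutation tests). Adding 1 FPKM also lowered the change of *Relb* relative to *Rela* to 0.93, which still passed.

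Set together, the 5 Rel family genes summed to 17.4 ± 1.16 FPKM in the NL retinas and to 36.0 ± 2.50 FPKM in the LD retinas (SD, n = 5 each). *Rela* made up 66.4% ± 1.27 of this sum under NL and 51.8% ± 3.05 after LD. The share of *Nfkb2* went from 9.71% ± 0.898 to 24.2% ± 3.31, and that of *Relb* from 4.04% ± 0.499 to 11.3% ± 0.660 (SD, n = 5 each). *Nfkb1* went from 14.1% to 9.16% and *Rel* from 5.74% to 3.63% on average. For each of the 5 genes the shares of the NL and LD retinas did not overlap, and *Rela* was the most abundant of them in every retina. The shares are per length and describe RNA, not protein.

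**Figure D3:**
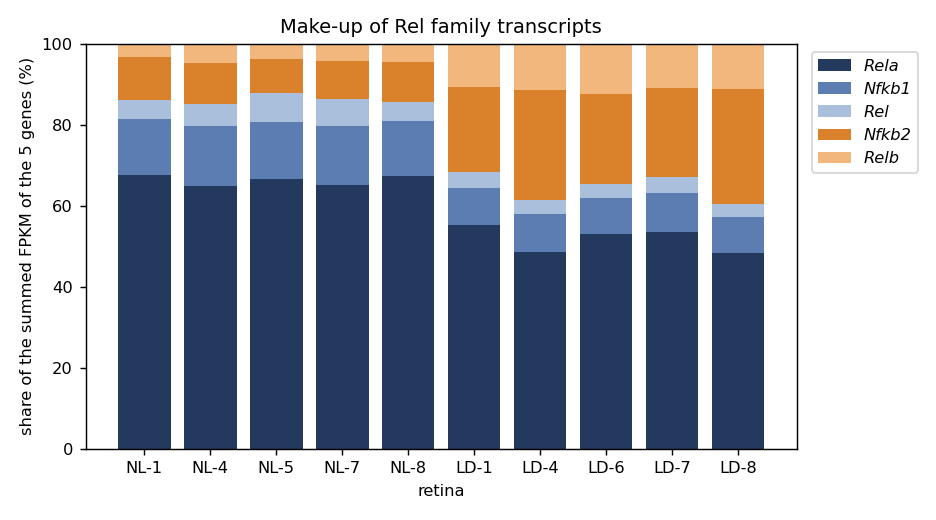
Share of each Rel family gene in the summed FPKM of the 5 genes (%), for each NL and LD retina. *Nfkb2* and *Relb* together take up more of every LD bar, with *Nfkb2* at 21.1% to 28.3% after LD against 8.27% to 10.5% under NL.

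The inhibitors *Nfkbia* and *Tnfaip3* went opposite ways. *Nfkbia* (chromosome 12 from 55489410 to 55492647) was at 10.95, 7.72, 9.24, 11.2 and 9.51 FPKM in NL-1, NL-4, NL-5, NL-7 and NL-8 and at 15.8, 14.8, 15.7, 16.1 and 14.96 FPKM in LD-1, LD-4, LD-6, LD-7 and LD-8. The LD retinas were all higher and closer to each other than the NL retinas, and the log2 fold change was 0.68 ± 0.09 (SE, limma-adjusted p = 3.35e-04), under 2-fold. Relative to *Rela*, which its product holds in the cytoplasm, *Nfkbia* differed by -0.01 between the groups (exact permutation p = 0.944, adjusted 0.944), with a 95% interval from -0.20 to 0.16. A change smaller than these limits could not be detected.

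*Tnfaip3* encodes A20, a ubiquitin-editing enzyme that acts on RIPK1 and TRAF6 and restrains NF-kappaB signaling. The gene lies on chromosome 10 from 19000910 to 19015657, on the minus strand, and overlaps no other gene of the table. It was the most abundant member under normal light, at 38.7, 42.1, 49.5, 44.9 and 32.1 FPKM in NL-1, NL-4, NL-5, NL-7 and NL-8, from 5982 to 7259 reads per retina. After light damage it was at 8.54, 6.7, 7.52, 7.9 and 11.1 FPKM in LD-1, LD-4, LD-6, LD-7 and LD-8. The lowest NL retina was almost 3-fold above the highest LD retina. The group mean of 41.5 ± 6.55 FPKM became 8.35 ± 1.67 FPKM (SD over 5 retinas), a 4.97-fold lower level, and the log2 fold change was -2.30 ± 0.14 (SE, limma-adjusted p = 1.57e-06). Over all alternatives it stayed between -2.41 and -2.17 and past the threshold. Within retinas, *Tnfaip3* relative to *Nfkbia* changed by -2.98, from 2.08 ± 0.33 to -0.90 ± 0.28 (two-sided exact permutation test, p = 0.00794, adjusted p = 0.0143), so that *Tnfaip3* was above *Nfkbia* in every NL retina and below it in every LD retina.

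Photoreceptor markers fell in the same retinas. All 6 (*Gnat1*, *Pde6a*, *Pde6b*, *Nrl*, *Sag* and *Cnga1*) were lower after LD, with log2 fold changes from -2.71 to -1.26 and a median of -2.14, and their summed level was 750.3 to 1522 FPKM in the LD retinas against 4558 to 5271 FPKM in the NL retinas. The difference between *Tnfaip3* and the mean of the 6 markers in log2(FPKM + 0.1) was -3.57 ± 0.20 under NL and -3.82 ± 0.33 after LD (SD, n = 5 each). It differed between the groups by -0.26, with a 95% interval from -0.72 to 0.14 (two-sided exact permutation test, p = 0.183), a comparison chosen after the values were seen and not adjusted for others. A gap between the fall of *Tnfaip3* and that of the markers beyond this interval was not seen. The LD retinas with the lowest *Tnfaip3*, LD-4 and LD-6, are a closest pair and also had the lowest summed photoreceptor markers (750.3 and 799 FPKM). LD-8 had the highest *Tnfaip3*, and LD-1 (1522 FPKM) and LD-8 (1513 FPKM) the highest summed markers. LD-1 and LD-7 did not follow this order. Their summed markers were 1522 and 1263 FPKM, with *Tnfaip3* at 8.54 and 7.90 FPKM, near the 6.70 and 7.52 FPKM of LD-4 and LD-6. Their differences from the markers (-4.22 and -4.10) lay below that of every NL retina (lowest -3.87). *Glul*, the glutamine synthetase gene of Muller glia, was also lower (-2.09 ± 0.10, SE, limma-adjusted p = 1.99e-07), while the other 5 of 6 Muller glia markers did not pass. The summed level of the 6 was 1048 to 1281 FPKM in NL and 505.7 to 714 FPKM in LD retinas. *Glul* alone went from a mean of 711 FPKM in NL to 165 FPKM in LD retinas. The other 5 had log2 fold changes from -0.52 (*Rlbp1*) to 0.50 (*Slc1a3*). Which cells held the *Tnfaip3* RNA was not measured, and the part of either cell type in its fall was not tested.

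Markers of microglia and macrophages, which carry Toll-like receptors, were higher. Of 13 markers, 10 rose and none fell by the same thresholds, and their summed level was 36.7 to 57.4 FPKM under NL and 79.0 to 183 FPKM after LD. *Cd68*, a lysosomal protein of phagocytes, had a log2 fold change of 2.41, whereas *P2ry12* (-0.74, adjusted p = 0.122) and *Tmem119* (0.22, adjusted p = 0.528), which mark resting microglia, did not pass the test in limma. *Tlr2* relative to the mean of these markers changed by 1.96 in log2(FPKM + 0.1), from -2.55 ± 0.33 to -0.59 ± 0.40 (SD, n = 5 each, two-sided exact permutation test, p = 0.00794, adjusted p = 0.0143). *Tlr4* relative to them differed by 0.11, with a 95% interval from -0.56 to 0.78 (exact permutation p = 0.690, adjusted 0.777). LD-1 and LD-7 (-3.47 and -3.57) lay below its NL range of -3.30 to -2.73, and LD-4 and LD-8 (-2.39 and -2.51) above it. With 1 FPKM added in place of 0.1, these changes were 0.71 for *Tlr2* and -0.58 for *Tlr4*, and on TPM values the change of *Tlr4* was 0.42. *Rel* relative to them was lower by -0.93 on average after LD, with a 95% interval from -1.45 to -0.37 (exact permutation p = 0.0159, adjusted 0.0238), and 1 LD retina, LD-8, lay within the NL range.

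*Tlr2* thus rose more than the mean of the microglial markers. For *Tlr4*, the sign of the change against these markers depended on the added constant. It also depended on the retinas included (-0.026 to 0.27 with 1 retina left out). Among defining neutrophil markers, *Elane* was at 0 in all retinas, *Mpo* had at most 2 reads and *Ly6g* at most 3 reads in any retina. The summed level of the 7 neutrophil markers was 0.649 to 0.999 FPKM under NL and 0.463 to 1.72 FPKM after LD. Of 6 endothelial markers none passed the thresholds. Their summed level was 33.5 to 44.4 FPKM under NL and 49.0 to 82.7 FPKM after LD, highest in LD-4 and LD-6. Most of this sum was *Kdr*, at a mean of 30.0 FPKM in NL and 49.8 FPKM in LD retinas. For each of the other endothelial markers the groups overlapped. Among 8 markers of the pigment epithelium, the layer next to the neural retina, none passed, with summed levels of 50.9 to 150 FPKM in NL and 59.0 to 113 FPKM in LD retinas.

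**Figure D4:**
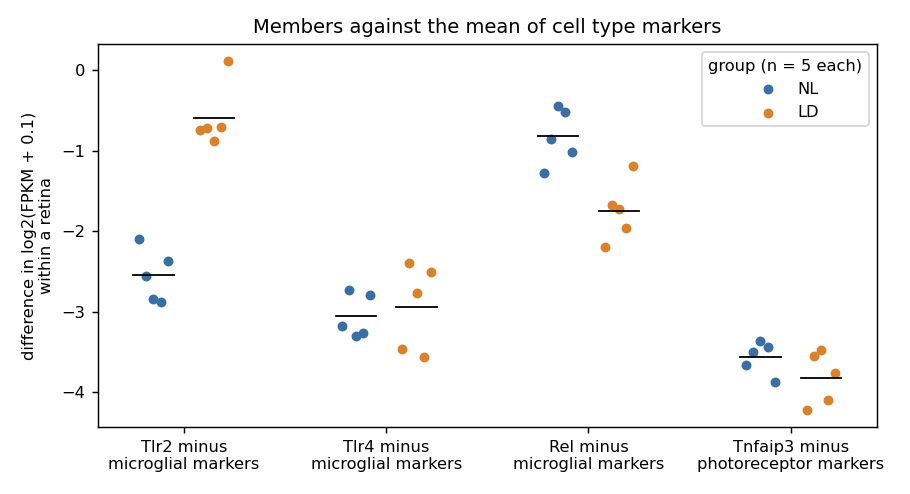
Difference in log2(FPKM + 0.1) within a retina between a member and the mean of cell type markers, for the 5 NL and 5 LD retinas, with bars for the means. *Tlr2* rises against the microglial markers by 1.96 and *Rel* is lower against them (-0.93). For *Tlr4* (0.11) against the same markers and *Tnfaip3* (-0.26) against the photoreceptor markers the groups overlap. The LD values of *Tlr4* reach past both ends of the NL range (-3.57 to -2.39 against -3.30 to -2.73). Those of *Tnfaip3* reach lower than the NL values (-4.22 against -3.87 at the lowest).

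Ordered by level, the members changed places. Under NL the order from the top was *Tnfaip3*, *Rela*, *Nfkbia*, *Nfkb1*, *Myd88*, *Nfkb2*, *Rel*, *Relb*, *Tlr2* and *Tlr4*, and the FPKM ranges of the neighbours *Rela* and *Nfkbia*, *Nfkb1* and *Myd88*, *Myd88* and *Nfkb2*, and *Tlr2* and *Tlr4* overlapped. After LD the order was *Rela*, *Nfkbia*, *Nfkb2*, *Tnfaip3*, *Myd88*, *Relb*, *Nfkb1*, *Tlr2*, *Rel* and *Tlr4*. Here *Nfkb2*, *Tnfaip3* and *Myd88* overlapped each other, as did *Relb* with *Nfkb1* and *Nfkb1* with *Tlr2*.

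Other genes of the pathway were grouped by role into 5 lists of 85 genes, of which 71 were tested. By the same thresholds 25 rose and none fell (4.13% and 2.37% of all genes tested), and the same number rose when every gene above 0 in any retina was tested. The filter on low values favours genes that are high in 1 group: 3 of the 25 (*Tlr7*, *Tnf* and *Cxcl1*, the last 2 named after their values were seen) were under 0.1 FPKM in all NL retinas and were tested only through their LD values. Medians are therefore given over all genes of a list, tested or not, and the median log2 difference of the 85 was 0.58. None of the 9 endogenous ligands tested passed both thresholds. *Hmgb1*, a nuclear protein that activates TLR4 once it is outside cells, had a log2 fold change of -0.03 (adjusted p = 0.872 in limma).

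Of 16 other receptors and co-receptors, 11 were tested and 8 rose, with a median log2 difference of 0.98 over the 16. *Cd14*, which hands lipopolysaccharide to TLR4, rose from 0.696 ± 0.106 FPKM in NL to 4.37 ± 0.286 FPKM in LD retinas (SD), or by 2.50 ± 0.11 (SE, limma-adjusted p = 1.65e-07). *Ly96*, which encodes the MD-2 subunit of that receptor, had a log2 fold change of 0.56 with an adjusted p of 0.0555 and did not pass. *Cd180*, a relative of TLR4 that works with *Ly86*, had the largest log2 fold change of the list, 3.17 (adjusted p = 2.51e-05 in limma), on 2 to 13 reads per NL retina. The endosomal RNA receptor *Tlr7* rose by 2.25 on the log2 scale (adjusted p = 1.08e-04 in limma), on at most 10 reads per NL retina, passed the filter only through the LD retinas, and was under 2-fold with 1 FPKM added (0.64). That setting also gave 1.27 for *Cd180* and 1.66 for *Cd14*. *Tlr1*, *Tlr3*, *Tlr13*, *Ly86* and *Unc93b1* were the others that rose, named after their values were seen.

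Of 24 adaptors and kinases, 23 were tested and 4 rose, with a median log2 difference of 0.28 over the 24. *Irf7*, an interferon regulatory factor that is itself interferon-induced, rose by 3.90 ± 0.27 (SE, limma-adjusted p = 3.01e-06). *Irak3*, an inhibitory member of the IRAK family, rose by 2.68 (limma-adjusted p = 5.78e-04). *Ripk1*, a kinase shared with the TNF receptor pathway, rose by 1.48 (limma-adjusted p = 1.49e-05). With 1 FPKM added, *Irak3* was at 1.36. The other was *Irf5* (1.29), named after its value was seen. The IkappaB kinase genes did not pass the fold threshold: log2 fold changes were -0.29 for *Chuk*, -0.10 for *Ikbkb* and -0.24 for *Ikbkg* (limma-adjusted p = 0.0187, 0.348 and 0.00595). By a limma-adjusted p under 0.05 alone, 11 genes of the list were higher and 5 lower (27.8% of all genes tested, either direction). *Map3k14*, whose product NIK starts the non-canonical branch, was higher by 0.67 ± 0.07 (SE, limma-adjusted p = 3.71e-05), under 2-fold.

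Of 13 other inhibitors and IkappaB proteins, 12 were tested and 3 rose, with a median log2 difference of 0.26 over the 13. *Bcl3*, an atypical IkappaB protein that binds p50 and p52 in the nucleus, rose from 0.448 ± 0.176 FPKM in NL to 21.4 ± 10.9 FPKM in LD retinas (SD), or by 5.21 ± 0.36 (SE, limma-adjusted p = 3.13e-06). It passed *Nfkbia* in level in LD-1 and LD-7, at 32.6 and 33.9 FPKM, but not in LD-4, LD-6 and LD-8, at 14.7, 14.8 and 11.1 FPKM. *Nfkbie* (1.30) and *Nfkbiz* (1.16) rose less, and both were under 2-fold with 1 FPKM added (0.96 and 0.93).

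Among 22 known NF-kappaB target genes, 16 were tested and 10 rose, including *Tnf* and *Cxcl1*, with a median log2 difference of 1.21 over the 22. The largest were the chemokine genes *Ccl2* (5.85 ± 0.44, SE, limma-adjusted p = 6.05e-06) and *Cxcl10* (4.94 ± 0.38, SE, limma-adjusted p = 7.30e-06), and *Lcn2* (3.61 ± 0.51, SE, limma-adjusted p = 4.35e-04), which encodes a secreted iron-binding protein. *Lcn2* had an adjusted p of 0.0128 in limma with the closest pairs averaged. With 1 FPKM added, *Ccl2* was at 3.75 and *Cxcl10* at 2.39. The other 6 did not pass, among them *Sod2*, with a log2 fold change of -0.02. *Cxcl10* and *Ccl2* also respond to interferon, so a rise of the list is not a measure of NF-kappaB alone.

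**Figure D5:**
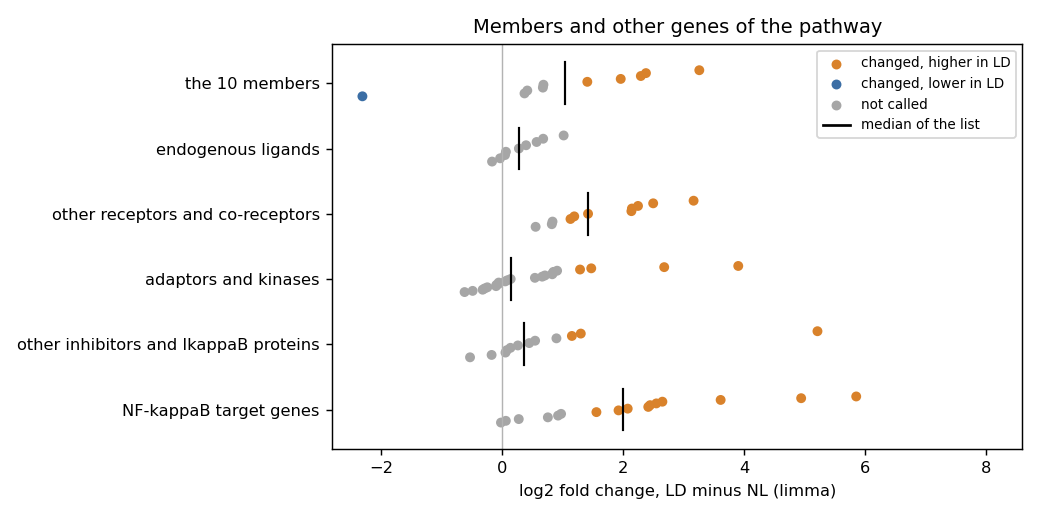
Log2 fold change, LD minus NL, of the 10 members and of the tested genes of 5 pathway lists, with a vertical bar for the median of the tested genes. Called higher are 8 of 11 tested receptors, 10 of 16 target genes and 4 of 23 adaptors and kinases (4.13% of all genes tested). *Tnfaip3* is the only gene called lower. The counts include *Tlr7*, *Tnf* and *Cxcl1*, tested only through their LD values, and leave out genes too low to test. The drawn medians are thus not those of whole lists (receptors 1.42 against 0.98, target genes 2.00 against 1.21).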

How the data were processed

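RNA-seq was done on 10 retinas, 5 NL and 5 LD, grouped by the sample labels, and the paper describes the columns as biological replicates. Following the paper, TRIzol was used for RNA extraction and a company sequenced and normalized it. The submitters' processing notes name TopHat2 2.0.9, Bowtie2 2.0.6 and the build mm8. The authors deposited FPKM values, and the gene positions are on GRCm38, since 53499 of the 54409 identifiers found in GENCODE release M21 have the same position there. The counting program, its strand setting and the annotation are not given in the sources used here.

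Reads were recovered from FPKM and gene length, and 100% of the values came out whole (within 0.02 reads). Each library size used by the authors equals the summed reads multiplied by a factor of 0.951 to 0.968 (NL) or 1.04 to 1.07 (LD), and without it the median log2 fold change of all genes was 0.11 in place of -0.01. The groups were compared in limma 3.58.1 (R 4.3.3, intensity trend) on log2(FPKM + 0.1), with Benjamini-Hochberg adjustment over 24508 genes. Single differences were compared by exact permutation (scipy 1.17.1), and their intervals hold the shifts that this test does not reject. Each marker list was averaged over its tested genes. 1 photoreceptor marker of the planned list is not reported here and was left out of the list's values. On simulated data for the LD against NL comparison (23560 genes), 99 of 100 genes with a log2 change of 3 and 84 of 100 with 1.5 were called, with 1 false call. These changes were placed only in genes with more expected reads than *Tlr7* or *Cd180* had in NL retinas. The retinas were simulated as independent, with the spread of the NL group. The rates may therefore not hold for genes with few reads or for the closest pairs of retinas.

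The members and lists were chosen with earlier results of these data known. The genes named from a pathway list are the changed ones with the largest fold change, at most 3 per direction; every other gene named from these lists was chosen after its values were seen. The alternatives numbered 21 planned and 2 added after the values were seen.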

Additional observations from a re-analysis of the deposited data

Results flagged for a closer look

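Among 44 groups of 5 values of the members and named pathway genes, 3 contained a retina standing apart, and 2.2 would by chance. *Lcn2* reached 7.24 FPKM in NL-1, above 0.772 to 1.48 FPKM elsewhere in the NL group. *Ccl2* was at 0.657 FPKM in NL-1 against 0.0414 to 0.207 FPKM. NL-1 also had the highest summed microglial markers of the NL retinas (57.4 FPKM), and the highest *Tlr2* (0.465 FPKM). *Ripk1* reached 4.10 FPKM in LD-8, above 3.16 to 3.42 FPKM elsewhere in the LD group. No group of values of the 10 members had such a retina.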

How the results depend on the processing

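The 6 changed members numbered 5 to 9 over the alternatives, and 6 with each retina left out in turn. *Tlr2*, *Myd88*, *Nfkb2*, *Relb* and *Tnfaip3* passed in each of 23 alternatives. *Tlr4* did not pass with a pseudocount of 1, with the closest pairs averaged or with the block described next, and could not be tested with a filter of 1 FPKM. The changed pathway genes numbered 24 to 26 with a retina left out, 15 with a pseudocount of 1, and 49 with an adjusted p under 0.05 and no minimum fold change. All changed genes numbered 1595, and 1386 to 1609 with a retina left out, 816 with a pseudocount of 1 and 6818 with the adjusted p alone.

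Replicate numbers 1, 4, 7 and 8 occur in both groups. Deviations of same-numbered retinas had correlations of -0.09 to 0.07, and 3 of 8 retinas correlated best with their own number, so the numbers were not taken as pairs. With the number as a replicate block, 815 genes and 5 members were called, against 1194 genes and 6 members in the same retinas without it. No difference between members could pass with the block (0 of the 9, smallest exact p 0.125) or with the closest pairs averaged (0 of the 9, smallest exact p 0.0571), and 6 of the 9 passed in the full set. *Tlr4* against the microglial markers turned to -0.58 with a pseudocount of 1 (adjusted p = 0.0179 by the exact permutation test) and ranged from -0.026 to 0.27 with a retina left out. *Nfkbia* against *Rela* ranged from -0.061 to 0.059 with a retina left out and was 0.0013 with the closest pairs averaged. The cause was not tested. Few reads stand behind the NL values of *Tlr2* (9 to 30 per retina) and *Tlr4* (9 to 24).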

Other observations

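Within the LD group, some pathway genes followed the closest pairs of retinas. *Irak3* was at 5.30 and 3.39 FPKM in LD-1 and LD-7 against 1.31, 1.45 and 1.21 FPKM in LD-4, LD-6 and LD-8. *Irak2*, chosen after its values were seen, went the other way, at 11.6 and 11.6 FPKM in LD-4 and LD-6 against 6.41, 6.56 and 6.28 FPKM in LD-1, LD-7 and LD-8. *Irf7* was at 22.8 and 28.0 FPKM in LD-1 and LD-7 against 46.3, 45.6 and 44.4 FPKM in the other LD retinas. *Cd14* varied little, from 3.97 to 4.77 FPKM over the LD retinas.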
